A study of Homo sapiens with 13 samples.

Results

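The comparison described here is the 12 h library against the 0 h library of a tamoxifen time course in MCF10A-Src cells. Its members were every gene row of the deposited table with an FPKM (fragments corrected for transcript length and for sequencing depth) of 1 or more at 0 h or at 12 h, 14642 of 38369 rows. Of these, 13022 reached that level in both libraries, 999 at 0 h alone and 621 at 12 h alone. The member nearest the limit had 1.0002 FPKM in its higher library and the nearest excluded row had 0.99906, with 335 rows between 1 and 1.1 and 349 rows between 0.9 and 1. Of the members, 14610 could be tested, of which 3386 were rows named as long intergenic noncoding RNAs (lincRNAs).

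MCF10A is an immortalised human breast epithelial line that does not form tumours, and in the MCF10A-Src derivative an introduced Src kinase becomes active when tamoxifen is added. The study asked how the lincRNA LINC00520 is induced during this process. PolyA-selected RNA was sequenced after 0 h (1 library), 4 h (2 libraries), 12 h (1 library) and 36 h (2 libraries) of tamoxifen. A separate over-expression experiment in parental MCF10A cells was not used here. The medium held horse serum, hydrocortisone, cholera toxin, EGF and insulin, so every library, the 0 h library included, came from cells grown with these factors. No vehicle-treated culture at 12 h was among the samples, so Src activation, tamoxifen itself and time in culture cannot be told apart. How many clones the derivative line comprised was not given in the sources used here. The labels do not say whether libraries of a time were grown as separate cultures. The p-values therefore rest on the spread between libraries alone, and this spread may be technical.

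Src is a tyrosine kinase that sits at adhesion sites and relays signals to STAT3, to the MAP kinase cascade and to PI3 kinase. STAT3 is the transcription factor through which IL-6 and related cytokines act, and it raises SOCS3, which shuts the receptor off, and the acute-phase proteins. NF-kB is a second inflammatory factor, held in the cytoplasm by inhibitors that it also induces, and the 2 pathways share many target genes.

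Fragments per library were 52.3 M at 0 h, 26.6 M at 12 h and 12.6 M to 24.0 M in the other 4 libraries. Over the genes fitted, the median absolute log2 difference between 12 h and 0 h was 0.341, against 0.259 between the 4 h replicates and 0.17 between the 36 h replicates. A difference beyond 1 was seen for 10.1% of genes at 12 h against 0 h, 5.43% between the 4 h replicates and 3.02% between the 36 h replicates. Breast epithelial markers were present in every library, KRT5 at 1974 FPKM at 0 h and 2218 FPKM at 12 h, and all 10 listed markers were members. Of 15 immune and blood cell markers, 2 had no row under their symbol and only CD14 and CD68 were members. CD2, MS4A1 and HBB were among those with 0 fragments in all 6 libraries. Of 12 fibroblast and endothelial markers, 3 had no row under their symbol and only DCN was a member (17.2 FPKM at 0 h, 29.5 at 12 h). KDR stood at 0.921 FPKM at 0 h, 0.540 at 12 h, and 1.17 and 1.21 at 36 h. CDH5 and COL1A2 had 0 fragments in all 6 libraries. In bulk RNA, a lower level in every cell and fewer cells expressing a gene cannot be told apart.

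Most genes called at 12 h were rises, though 47.7% of the members tested had a log2 fold change above 0. The numbers of rises and falls were closer to each other without either 4 h replicate, as given below. Of the members tested, 442 were higher and 184 lower at 12 h by edgeR's quasi-likelihood test (adjusted p under 0.05), which is 4.28% of 14610 (3.03% higher and 1.26% lower). Over all 15572 genes in the fit, 4.24% were called, 3.04% higher and 1.2% lower. The rises were also larger: their median log2 fold change was 2.08, against -1.63 for the falls, and the median over all members was -0.03. An 8-fold change was passed by 120 of the rises and 9 of the falls, and a 32-fold change by 45 rises. The FPKM limit admitted 166 of the 442 rises through their 12 h level alone and 66 of the 184 falls through their 0 h level alone. The sizes are therefore a description of the genes so chosen. Genes called higher held 1.58% of the fragments at 0 h, 3.37% and 3.32% at 4 h, 6.22% at 12 h, and 9.89% and 9.47% at 36 h. Genes called lower held 1.81% at 0 h, 1.74% and 1.57% at 4 h, 0.648% at 12 h, and 0.808% and 0.727% at 36 h. Both times compared had 1 library, whose spread was taken from the pairs at 4 h and 36 h, so no gene had a replicate check of its own at 0 h or 12 h, and a gene that did not pass is not shown to be unchanged. The number called depended on the 4 h pair: without its replicate 1 there were 1358 rises and 1244 falls, and without its replicate 2 there were 1394 and 1059. limma on log2(FPKM + 1) called 150 and 73, the authors' deposited q-values gave 735 and 411, and at an unadjusted p under 0.05 there were 2825 members.

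**Figure D1:**
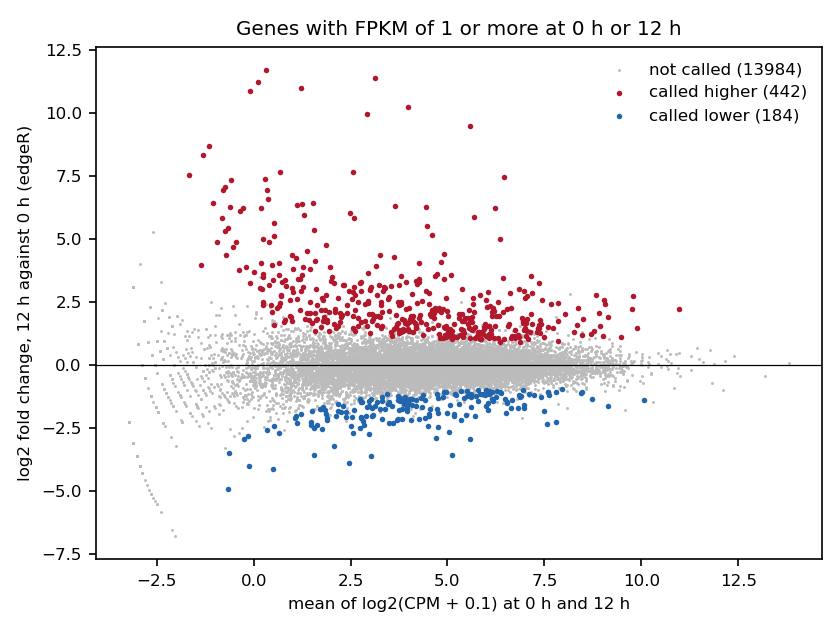
Log2 fold change at 12 h against 0 h (y axis) by mean level (x axis, mean of log2(CPM + 0.1) in the 0 h and 12 h libraries) for the 14610 members tested. Red points are the 442 genes called higher, blue points the 184 called lower and grey points the rest; the rises reach much larger values than the falls.

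Among genes that have a single symbol, are not lincRNAs and had more than 3 fragments at both times, the 3 largest rises were in genes of secreted proteins. ADAMTS4, a secreted protease that cleaves cartilage proteoglycan (chr1:161159539-161168845, hg19), stood at 0.123 CPM at 0 h, 19.5 and 21.8 at 4 h, 344 at 12 h, and 421 and 302 at 36 h. Levels here are CPM, counts scaled to library size with TMM, edgeR's correction for library composition. IL24, a cytokine of the interleukin family (chr1:207070789-207098622), stood at 0.403 CPM at 0 h, 165 and 152 at 4 h, 491 at 12 h, and 229 and 233 at 36 h. STC1, which encodes the secreted hormone stanniocalcin, stood at 0.193 CPM at 0 h, 7.21 and 6.45 at 4 h, 198 at 12 h, and 467 and 413 at 36 h. For all 3 genes the 0 h library was the lowest of the 6, and the 12 h library was above both 4 h libraries. The log2 fold changes were 11.40 (SE 0.463, adjusted p 3.52e-05), 10.24 (SE 0.322, adjusted p 1.86e-05) and 9.97 (SE 0.35, adjusted p 2.24e-05). Against 4 h, 4.6% of all genes fitted were called at 12 h (2.96% higher and 1.64% lower), and at 36 h against 12 h 20.9% were called (10.3% higher and 10.5% lower). IL24 alone of the 3 was lower at 36 h than at 12 h (log2 -1.09, adjusted p 0.00692), and STC1 was higher (log2 1.15, adjusted p 0.00855). Since the comparisons with 4 h and 36 h use the same 12 h library, they are not independent of the comparison with 0 h.

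The other large rises among these genes differed in when they began and in their starting levels. TNC, the matrix glycoprotein tenascin C, stood at 8.58 CPM at 0 h, 201 and 138 at 4 h, 639.9 at 12 h, and 1608 and 1107 at 36 h. TGM2, a transglutaminase that cross-links proteins, stood at 6.62 CPM at 0 h, 61.2 and 46.5 at 4 h, 394 at 12 h, and 478 and 491 at 36 h. GRAMD1B, which moves cholesterol between membranes, stood at 2.42 CPM at 0 h, 3.89 and 4.07 at 4 h, 189 at 12 h, and 311 and 279 at 36 h. TGM2 and TNC stood above 0 h in both 4 h libraries, whereas GRAMD1B at 4 h stood near its 0 h level. IL33, an epithelial alarm cytokine, rose 86.2-fold to 23 CPM, and TMPRSS4, a membrane serine protease, rose 82.2-fold to 16.2 CPM. Both were higher again at 36 h, with log2 fold changes over 12 h of 1.79 and 2.93 (adjusted p 0.0033 and 0.00132). CYTH4, an exchange factor for small GTPases, rose to 15 CPM, TNFRSF1B, a receptor for tumour necrosis factor, to 8.94 CPM, and CRP, the C-reactive protein of the acute phase, to 6.93 CPM. Their 0 h levels were 0.0701, 0.0876 and 0.0876 CPM, from 4, 5 and 5 fragments. FAIM3, an Fc receptor for IgM, stood at 1.35 CPM at 0 h, 34.8 and 45.5 at 4 h, 107 at 12 h, and 58.9 and 60.5 at 36 h, but its deposited interval was that of IL24, so the reads of these neighbours may not have been fully separated. The authors' deposited table gave q-values of 0.276 for ADAMTS4, 0.178 for STC1, 0.118 for CYTH4, 0.296 for TNFRSF1B and 0.297 for CRP, so these 5 of the 12 largest rises under those limits were not called there.

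**Figure D2:**
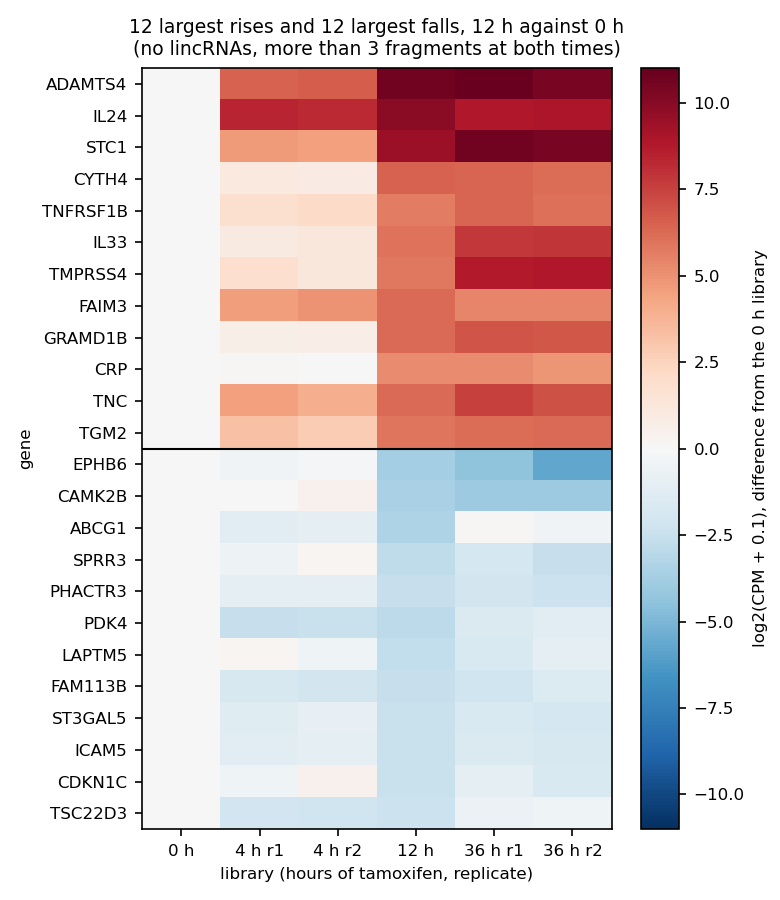
Levels in each of the 6 libraries of the 12 largest rises (above the line) and 12 largest falls (below it) among called genes with a single symbol, lincRNAs left out, and more than 3 fragments at 0 h and at 12 h, as log2(CPM + 0.1) minus the same in the 0 h library; r1 and r2 are replicates. The 12 h column is strongly red for all 12 rises, while the falls are paler, and CRP and GRAMD1B are the palest of the rises at 4 h.

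Several rises began from almost no reads, so their folds are bounds or carry wide counting intervals. TRIM40, an E3 ubiquitin ligase of the tripartite motif family, had 0 fragments at 0 h and 443 at 12 h, at least 300.1-fold higher, taking 3 fragments as the 0 h limit. TRIM40 has 8 rows in the deposited table, and the value is that of the row at chr6:30103885-30116512. TDRD9, a helicase of the germ line piRNA pathway, had 0 fragments at 0 h, 0 and 1 at 4 h, and 249 at 12 h, at least 169-fold higher. It was far higher still at 36 h, at 92.1 and 84.6 CPM against 8.8 CPM at 12 h. ECSCR, an endothelial cell surface protein, had 0 fragments at 0 h and 55 at 12 h, at least 37.3-fold higher. GZMB, the granzyme B protease of cytotoxic lymphocytes, had 0 fragments at 0 h and 43 at 12 h, at least 29.1-fold higher. LTF, the iron-binding protein lactoferrin, had 1 and 103, which is 209-fold with a 95% interval of 36.7 to 8347. GZMB and LTF were picked after their values were seen. The intervals cover counting error only. All of these genes were higher at 12 h than in either 4 h library.

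The falls were shallower than the rises. EPHB6, an ephrin receptor without kinase activity, stood at 5.04 CPM at 0 h, 3.89 and 4.46 at 4 h, 0.283 at 12 h, and 0.145 and 0 at 36 h. CAMK2B, a calcium-dependent kinase subunit, stood at 27.6 CPM at 0 h, 28.8 and 39.4 at 4 h, 2.26 at 12 h, and 1.59 and 1.61 at 36 h. In both genes the 4 h libraries were near 0 h and the 12 h and 36 h libraries were far below, with log2 fold changes of -4.13 (SE 0.576, adjusted p 0.00641) and -3.61 (SE 0.34, adjusted p 0.00132). PDK4, the kinase that turns off pyruvate dehydrogenase, stood at 70.7 CPM at 0 h, 12.2 and 13.2 at 4 h, 9.54 at 12 h, and 23.5 and 29.8 at 36 h. TSC22D3, also called GILZ and induced by glucocorticoids, stood at 51.5 CPM at 0 h, 11.7 and 11.2 at 4 h, 9.72 at 12 h, and 33.7 and 36.8 at 36 h. These 2 genes were already low in both 4 h libraries and had partly returned at 36 h, with log2 fold changes from 12 h to 36 h of 1.48 and 1.86 (adjusted p 0.0083 and 0.00318). ABCG1, a cholesterol exporter, fell 11.7-fold, from 9.55 to 0.813 CPM, and was back at 10.7 and 7.4 CPM at 36 h. CDKN1C, the p57 inhibitor of cyclin-dependent kinases, fell 5.57-fold to 2.76 CPM. LAPTM5, a lysosomal membrane protein, fell 6.56-fold to 3 CPM, and ST3GAL5, which makes the ganglioside GM3, fell 5.79-fold to 1.34 CPM. SPRR3, PHACTR3, FAM113B and ICAM5 completed the 12, with 12 h levels of 0.141, 0.247, 0.566 and 1.17 CPM. Of the 12 falls, limma on log2(FPKM + 1) called CAMK2B, PDK4 and TSC22D3, and the authors' deposited table did not call SPRR3 (q 0.169) or FAM113B (q 0.183).

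The genes the study is named for rose, except SRC itself. LINC00520, the row linc-TBPL2-2 (chr14:56243909-56263392), stood at 1.59 CPM at 0 h, 1.56 and 0.934 at 4 h, 14.7 at 12 h, and 162 and 202 at 36 h. Its fragments were 91 at 0 h, 30 and 22 at 4 h, and 415 at 12 h. It was therefore no higher at 4 h than at 0 h, and the 12 h library was the earliest in which it stood above the start. The rise at 12 h was 9.18-fold (SE 0.335 on the log2 scale, adjusted p 0.0019), which limma on log2(FPKM + 1) did not call. STAT3 stood at 270.2 CPM at 0 h, 470.5 and 457 at 4 h, 631 at 12 h, and 523 and 459.9 at 36 h. It was highest at 12 h, 2.33-fold above 0 h (SE 0.22 on the log2 scale, adjusted p 0.021), again not called by limma on log2(FPKM + 1). The SRC row (chr20:35973088-36054791) did not pass the test, at 19.2 CPM at 0 h and 24 CPM at 12 h (log2 0.32, SE 0.326, adjusted p 0.645). Reads of the introduced Src gene and of the cell's own SRC may fall on the same row.

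Of 24 members of the IL-6 and STAT3 pathway tested, 13 were called, all higher, among them ligands, feedback inhibitors and acute-phase genes. Of the 24, 21 had a positive log2 fold change, with a median of 1.73 against -0.03 over all members. DESeq2 called 12 of the 24 and limma on log2(FPKM + 1) called 5. Among the ligands, IL24 rose as given above, LIF stood at 6.38 CPM at 0 h, 51.4 and 64 at 4 h, 25.4 at 12 h, and 2.03 and 1.9 at 36 h, and IL6 stood at 0.49 CPM at 0 h, 6.69 and 11.3 at 4 h, 6.89 at 12 h, and 0.483 and 0 at 36 h. LIF was thus higher in both 4 h libraries than at 12 h and ended below its 0 h level, and IL6 at 12 h lay between its 4 h libraries and was nearly gone at 36 h. Of the receptor side, IL6R, IL6ST, LIFR and OSMR did not pass the test, with log2 fold changes of 0.13, 0.65, -0.41 and 0.86. The feedback inhibitor SOCS3 stood at 14.3 CPM at 0 h, 222 and 294 at 4 h, 458 at 12 h, and 426 and 396 at 36 h. Its relative SOCS1 had 3 fragments at 0 h and 48 at 12 h, which is 32.5-fold with a 95% interval of 10.5 to 163. Among the acute-phase genes, SAA2 stood at 6.78 CPM at 0 h, 85 and 74.5 at 4 h, 116 at 12 h, and 182 and 188 at 36 h, and SERPINA1, alpha-1 antitrypsin, stood at 53.1 CPM at 0 h, 215 and 155 at 4 h, 506 at 12 h, and 1590.2 and 1679.8 at 36 h. SOCS3 and SAA2 stood well above 0 h in both 4 h libraries, whereas SERPINA1 had its highest levels at 36 h (log2 1.69 over 12 h, adjusted p 0.00598). FGL1, a liver acute-phase protein, rose 49.2-fold, HP, haptoglobin, 12.4-fold, and SAA1 3.61-fold. SAA1, SAA2 and SAA4 are close copies in a row on chromosome 11, so reads could be split between them.

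Of 20 NF-kB genes tested 9 were called, all higher, among them subunits, an inhibitor and secreted products. Of the 20, 19 had a positive log2 fold change, with a median of 1.24; DESeq2 called 12 and limma on log2(FPKM + 1) called 4. TNFAIP3, the A20 enzyme that limits NF-kB signalling, stood at 15.1 CPM at 0 h, 57.5 and 52.2 at 4 h, 66.7 at 12 h, and 41.7 and 44 at 36 h. The subunit genes RELB and NFKB2 rose 2.81-fold and 2.42-fold, while RELA (log2 0.74), REL (log2 -0.24) and the inhibitor gene NFKBIA (log2 1.00) did not pass. SOD2, the mitochondrial superoxide dismutase, stood at 341 CPM at 0 h, 1116 and 1515 at 4 h, 2311 at 12 h, and 4382 and 4802 at 36 h. PTGS2, the inducible cyclooxygenase, stood at 4.29 CPM at 0 h, 8.72 and 8.53 at 4 h, 28.3 at 12 h, and 11.1 and 11.4 at 36 h. The profiles of these genes differed: TNFAIP3 at 12 h did not pass the test against 4 h (log2 0.28, adjusted p 0.483), SOD2 was higher again at 36 h, and PTGS2 was highest at 12 h. Among the 8 chemokine members 4 were called higher. CCL20, which attracts cells with the receptor CCR6, stood at 6.03 CPM at 0 h, 20.9 and 30.3 at 4 h, 59.8 at 12 h, and 115 and 144 at 36 h. CXCL1 and CXCL3, neutrophil attractants with closely similar genes, rose 4.86-fold and 10.8-fold, and CXCL2 and IL8 did not pass (log2 1.03 and 1.38). CCL2, the monocyte attractant, had 1 fragment at 0 h and 85 at 12 h, a ratio of 173 (95% interval 30.2 to 6902). It was past its peak by then, at 9.29 and 8.49 CPM at 4 h, 3 CPM at 12 h and 0 in both 36 h libraries. The authors' deposited table gave CCL2 a q-value of 0.559.

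Further immune genes were among the rises, of which TLR2, IL1R1, IL1R2 and CSF3 were picked after their values were seen. TLR2, a receptor for bacterial lipoproteins, went from 0.333 CPM at 0 h to 2.79 at 12 h and 34.6 and 33.8 at 36 h. The IL-1 receptor genes IL1R1 and IL1R2, the second a decoy, rose 4.09-fold and 11.3-fold. CSF3, the granulocyte growth factor, rose 5.98-fold to 155 CPM and was highest at 12 h. S100A8 and S100A9, the subunits of calprotectin, stood at 53.8 CPM at 0 h, 84.5 and 115 at 4 h, 388 at 12 h, and 3151 and 3519.6 at 36 h and at 229.6 CPM at 0 h, 346 and 401 at 4 h, 1238 at 12 h, and 8917 and 10429 at 36 h. limma on log2(FPKM + 1) and on log2(FPKM + 0.1) called neither gene, with adjusted p of up to 0.285 for S100A8 and 0.355 for S100A9. By FPKM, S100A9 was the fifth most abundant row at 12 h, with 764 FPKM at 0 h and 3700 at 12 h, and S100A8 went from 471 to 2549. The row that joins SERPINB3 and SERPINB4, serpins of squamous epithelium, was picked in the same way and went from 6.57 to 1166 CPM (log2 7.47, SE 0.297, adjusted p 3.52e-05). Of 25 interferon-stimulated genes TAP1 and IRF1 were called, both higher, with a median of 0.73. An unadjusted edgeR p under 0.05 was seen for 14 of the 25, against 2825 of all 14610 members tested. limma on log2(FPKM + 1) called 0 of the 25.

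**Figure D3:**
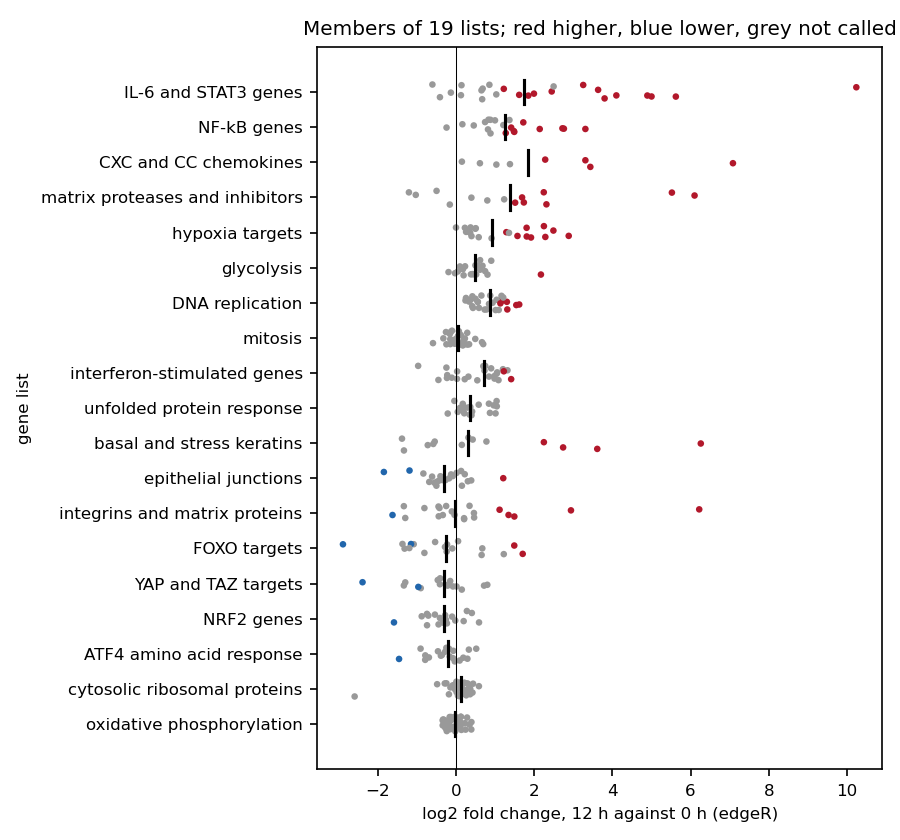
Log2 fold change at 12 h against 0 h (x axis) of each tested member of 19 gene lists (y axis); red points were called higher, blue lower and grey not called, and the black bar is the list's median. The medians of the IL-6 and STAT3 genes (1.73), chemokines (1.83), matrix proteases and inhibitors (1.37) and NF-kB genes (1.24) lie farthest to the right, and those of epithelial junctions (-0.30) and NRF2 genes (-0.30) to the left of 0.

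Of 14 matrix protease and inhibitor genes tested 7 were called, all higher, and integrin and matrix genes were split. The protease and inhibitor list had a median of 1.37; limma on log2(FPKM + 1) called 4. ADAM19, a membrane metalloprotease, stood at 3.21 CPM at 0 h, 8.04 and 6.66 at 4 h, 147 at 12 h, and 297 and 310.5 at 36 h. MMP14, which activates other matrix metalloproteases, stood at 68.8 CPM at 0 h, 91.4 and 76.1 at 4 h, 222 at 12 h, and 443 and 442 at 36 h. The urokinase gene PLAU and its receptor PLAUR rose 3.33-fold and 4.74-fold, and the inhibitors SERPINE2 and TIMP1 rose 4.97-fold and 2.86-fold. PLAT, the tissue plasminogen activator gene, did not pass (log2 -1.03, adjusted p 0.0611). ADAM19 and MMP14 were highest at 36 h, whereas PLAUR at 12 h was below both 4 h libraries. Among 21 integrin and matrix genes 5 were higher and 1 lower. ITGB6, the epithelial integrin subunit that activates latent TGF-beta, stood at 45.6 CPM at 0 h, 283 and 299 at 4 h, 349.8 at 12 h, and 215 and 227 at 36 h. LAMB3, ITGA2 and ITGA5 rose 2.81-fold, 2.54-fold and 2.17-fold. THBS1, thrombospondin, was the gene that fell, and it did so after a surge: it stood at 993 CPM at 0 h, 5831 and 5035 at 4 h, 323 at 12 h, and 690.2 and 620.2 at 36 h.

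The 4 h surge followed by a fall below the start was shared by a tight junction gene. CLDN1, claudin 1, stood at 71.8 CPM at 0 h, 491 and 481 at 4 h, 31.5 at 12 h, and 10.2 and 12.3 at 36 h, and the log2 fold change from 4 h to 12 h was -3.95 (adjusted p 0.000234), like that of THBS1 (-4.07, adjusted p 0.000272). TJP3, another tight junction protein, fell 3.59-fold to 2.44 CPM. Both were among 23 junction genes, of which 2 were lower and 1 higher, with a median of -0.30; limma on log2(FPKM + 1) called 0. The gene called higher was CDH3, P-cadherin, at 234 CPM at 0 h, 598 and 593 at 4 h, 541 at 12 h, and 412 and 349 at 36 h. CDH1, E-cadherin, had 108 CPM at 0 h and 119.7 CPM at 12 h (log2 0.15, SE 0.226, adjusted p 0.763). Of 12 mesenchymal genes, SNAI1, a repressor of E-cadherin, was the one called (10.4-fold higher), while VIM (log2 -0.23), FN1 (log2 0.46), ZEB1 (log2 0.12) and CDH2 (log2 -0.07) did not pass.

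The KRT6 keratins and KRT75 were called higher, while the other members of the keratin and basal list did not pass. KRT6A stood at 923 CPM at 0 h, 2693 and 2624 at 4 h, 4384 at 12 h, and 5098 and 4190.3 at 36 h. KRT6B rose 12.2-fold and KRT6C 6.68-fold, and KRT75, a keratin of hair follicle and nail bed, had 2 fragments at 0 h and 86 at 12 h, a ratio of 87.4 (95% interval 23.5 to 733). KRT75 was higher at 4 h (9.6 and 4.71 CPM) than at 12 h (3.04 CPM) and nearly gone at 36 h. The 3 KRT6 genes are near-identical neighbours, so reads could be split among them, and the authors' deposited table gave q-values of 0.0932, 0.625 and 0.618 for KRT6A, KRT6B and KRT6C. KRT75 shares their deposited interval and had a q-value of 0.599 there. KRT5 (log2 0.15), KRT14 (log2 0.78), KRT17 (log2 0.43) and KRT15 (log2 -1.38) did not pass. In all, 4 of 13 keratin and basal genes were called higher, where DESeq2 called 6 and limma on log2(FPKM + 1) called 1.

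Of 21 genes on the hypoxia list 9 were called higher, and 1 of 20 glycolysis genes was. The hypoxia list holds HIF1A itself beside genes that hypoxia and HIF proteins are known to induce. All 21 hypoxia list members had a positive log2 fold change, with a median of 0.91; limma on log2(FPKM + 1) called 4. HIF1A, which encodes the oxygen-regulated factor itself, stood at 292 CPM at 0 h, 571 and 614 at 4 h, 1105 at 12 h, and 1474 and 1451 at 36 h. This is the RNA level, and the protein was not measured. VEGFA, the vascular growth factor, stood at 45.3 CPM at 0 h, 147 and 138 at 4 h, 221 at 12 h, and 311 and 241 at 36 h. PFKFB3, which makes the activator of phosphofructokinase, stood at 35.6 CPM at 0 h, 131 and 105 at 4 h, 263 at 12 h, and 167 and 133 at 36 h. HIF1A and VEGFA were above 0 h in both 4 h libraries, and PFKFB3 was highest at 12 h. At 12 h against 4 h the log2 fold change was 0.90 for HIF1A and 0.63 for VEGFA, of which that of VEGFA did not pass the test. NDRG1 and EGLN3, the latter a prolyl hydroxylase that marks HIF proteins for decay, rose 4.75-fold and 5.62-fold. CA9, a carbonic anhydrase often read as a hypoxia marker, did not pass (2.89 CPM at 0 h, 3.68 at 12 h, adjusted p 0.669), nor did SLC2A1, the glucose transporter GLUT1 (log2 0.23). Among 20 glycolysis genes ENO2 alone was called (4.51-fold higher), with a median of 0.48 and a log2 fold change of 0.81 for HK2, 0.75 for PGK1 and 0.50 for LDHA.

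Of the DNA replication genes 7 of 30 were called higher at 12 h, and of the mitotic genes 0 of 30 passed the test. Cells entering S phase turn on E2F target genes, among them the MCM helicase subunits, and also the histone genes that package new DNA. All 30 replication genes had a positive log2 fold change, the lowest 0.24 (TYMS), with a median of 0.86; DESeq2 called 12 and limma on log2(FPKM + 1) called 1. CCNE2, a cyclin that starts S phase, stood at 12.3 CPM at 0 h, 20.8 and 19.3 at 4 h, 37.6 at 12 h, and 4.15 and 4.93 at 36 h. CDC6, which loads the MCM helicase, stood at 37.3 CPM at 0 h, 49.9 and 54.2 at 4 h, 92.7 at 12 h, and 16.5 and 16.8 at 36 h. The 12 h library was the highest of the 6 for both genes, and 36 h was below 0 h. E2F1 rose 2.47-fold, CCNE1 2.91-fold, FEN1 2.26-fold, CLSPN 2.25-fold and MCM7 2.2-fold. PCNA (log2 0.56, adjusted p 0.262) and MCM2 (log2 0.85, adjusted p 0.0746) did not pass. From 12 h to 36 h 28 of the 30 were called lower, against 10.5% of all genes fitted.

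The histone genes of the replication-dependent clusters, a list added after values were seen, had a median of 1.05 over 58 members, 55 of them positive. Only HIST1H1A and HIST1H2BB were called. HIST1H1A, a linker histone, stood at 24.6 CPM at 0 h, 20.4 and 35 at 4 h, 106 at 12 h, and 18.5 and 17.6 at 36 h. The 12 h library was 3.02-fold above the highest of the others. The 4 h replicates differed for this group: the median difference from 0 h over the 58 genes was -0.35 in replicate 1 and 0.64 in replicate 2. DESeq2 called 16 of the 58 and limma on log2(FPKM + 1) called 0. Most transcripts of these genes lack a polyA tail and many are near-identical, so the polyA-selected libraries measured them in part. Of 30 mitosis genes edgeR called 0 and DESeq2 called 0. At an unadjusted edgeR p under 0.05 there were 2 of the 30, against 2825 of all 14610 members tested. The median was 0.06, with a range from -0.59 (CENPF) to 0.70 (AURKB).

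**Figure D4:**
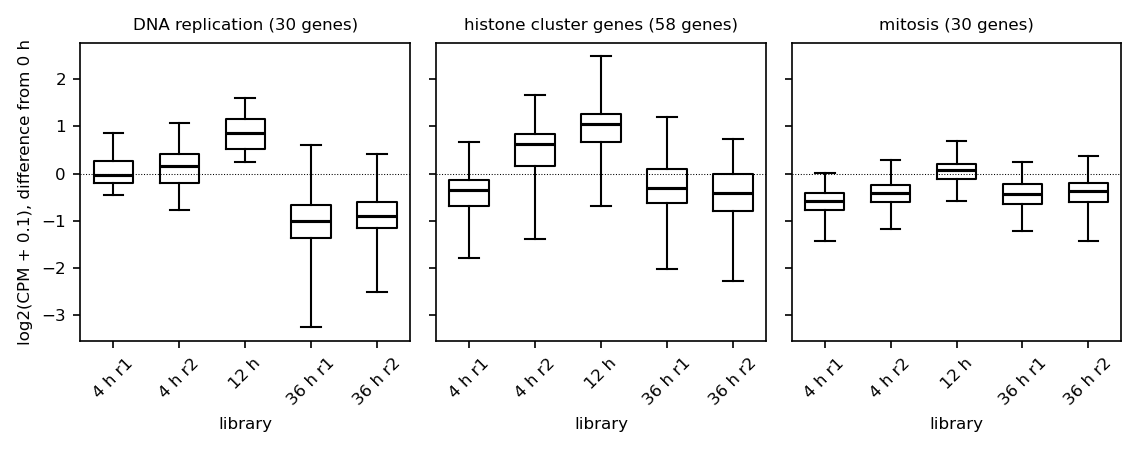
Difference from the 0 h library in log2(CPM + 0.1) (y axis) for 30 DNA replication genes, 58 histone cluster genes and 30 mitosis genes in each of the other 5 libraries (x axis). Boxes span the quartiles, black lines are medians and whiskers reach the lowest and highest gene; replication genes sit above 0 at 12 h and below 0 in both 36 h libraries, and the 4 h replicates differ for the histone genes.

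Growth factor and stress lists had 1 or 2 called members each, against 4.28% of all members. AREG, the EGF receptor ligand amphiregulin, stood at 27 CPM at 0 h, 11.1 and 9.17 at 4 h, 6.01 at 12 h, and 8.94 and 10.9 at 36 h and was the 1 of 10 EGF family members called. EGFR (log2 -0.57), EREG (log2 -0.17) and HBEGF (log2 1.18) did not pass. Of the factors that answer growth signals within minutes, JUNB and FOSL2 rose 3.07-fold and 2.52-fold, while FOS, JUN and EGR1 did not pass (log2 0.62, 0.31 and -0.95). Of 18 genes of MAP kinase feedback, DUSP1 and SPRED3 were higher (2.23-fold and 5.68-fold). The call of DUSP1 was lost in 4 of 13 other settings, library totals among them, and that of SPRED3 in 1, DESeq2. Among 16 YAP and TAZ targets, which report tension and low cell density, ANKRD1 fell 5.23-fold and CRIM1 1.95-fold, with a list median of -0.31; CTGF and CYR61 had log2 fold changes of -1.30 and -1.33 without passing. GCLC, the rate-limiting enzyme of glutathione synthesis, was the 1 of 18 NRF2 genes called and stood at 219 CPM at 0 h, 147 and 168 at 4 h, 72.9 at 12 h, and 58.8 and 47 at 36 h. NUPR1, a stress protein, was the 1 of 20 ATF4 genes called (2.74-fold lower). The call of CRIM1 was lost when either 36 h replicate was left out. limma on log2(FPKM + 1) called 0 members of the EGF family, YAP, NRF2 and ATF4 lists. It also called 0 of the factors that answer growth signals within minutes, JUNB and FOSL2 included.

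FOXO targets, which PI3 kinase and AKT hold down when active, moved in both directions. Of 18 tested, PDK4 and SESN1 were lower and KLF9 and GADD45B higher, with a median of -0.26. KLF9 stood at 10.9 CPM at 0 h, 3.16 and 3.69 at 4 h, 35.6 at 12 h, and 93.7 and 107 at 36 h, so it was below 0 h in both 4 h libraries and above it at 12 h. CCNG2 had a like course without passing at 12 h against 0 h (42.5 CPM at 0 h, 12.7 and 11.8 at 4 h, 67.8 at 12 h, 242 and 275 at 36 h). SESN1 stood at 54.2 CPM at 0 h, 18 and 18.1 at 4 h, 24.4 at 12 h, and 24.2 and 23.4 at 36 h, and its call was lost when either 36 h replicate was left out. Of 18 PI3 kinase and AKT components edgeR called 0 and DESeq2 called 1, with a median of -0.40. At an unadjusted edgeR p under 0.05 there were 6 of the 18, against 2825 of all 14610 members tested.

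Lists of basal cell machinery gave no calls by edgeR, DESeq2 or limma on log2(FPKM + 1). The median was -0.02 over 38 oxidative phosphorylation genes (0 at an unadjusted p under 0.05), 0.12 over 40 ribosomal protein rows (1) and 0.13 over 31 mitochondrial ribosomal protein genes (1). Over all 14610 members tested, 2825 had an unadjusted edgeR p under 0.05. RPL41, a ribosomal protein outside that list and with many processed copies in the genome, was called lower, at 369 FPKM at 0 h and 117 at 12 h. Of 20 genes of the unfolded protein response edgeR called 0, with 6 at an unadjusted p under 0.05, 4 called by DESeq2, and a median of 0.36. Lysosomal proteases stood out in their list of 24: CTSL1, cathepsin L, stood at 25.9 CPM at 0 h, 49.1 and 54.9 at 4 h, 285 at 12 h, and 1889 and 2018 at 36 h, and CTSB, cathepsin B, stood at 173 CPM at 0 h, 509 and 471 at 4 h, 1201 at 12 h, and 4225 and 3432 at 36 h. Both kept rising to 36 h, with log2 fold changes from 12 h of 2.78 and 1.67 (adjusted p 0.00111 and 0.00477). Among 20 TGF-beta and BMP genes 4 were higher: TGFB3 (7.72-fold), BAMBI (3.15-fold), BMP2 (2.58-fold) and ID1 (2.12-fold). The call of BMP2 was lost in 5 of 13 other settings and that of ID1 in 3, library totals among them for both. Of the clock genes, BHLHE40 was higher (2.29-fold) and NR1D2 lower (2.63-fold).

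Of the genes called higher, 385 of 442 (87.1%) were above both 4 h libraries at 12 h, against 35% of all members, and 236 (53.4%) were below both 36 h libraries, against 40.4%. The 12 h library was the highest of the 6 for 142 (32.1%), against 14.3% of all members. The 12 h value both chose these genes and enters the order, so the shares are a description. Of the genes called lower, 94 of 184 (51.1%) were lowest at 12 h, against 14.9% of all members. At least a 2-fold excess over every other library was seen for 25 of the rises (5.66%). The share over all members was not counted, so this too is a description. FAM115C stood at 2.12 CPM at 0 h, 5.6 and 4.12 at 4 h, 20.1 at 12 h, and 4.88 and 5.98 at 36 h. ARNT2, a partner of HIF and dioxin receptor proteins, stood at 1.93 CPM at 0 h, 2.02 and 1.4 at 4 h, 15 at 12 h, and 4.88 and 4.84 at 36 h. SYNPO, an actin-binding protein, stood at 2.73 CPM at 0 h, 8.46 and 5.39 at 4 h, 22.3 at 12 h, and 5.36 and 4.74 at 36 h. Each of these 3 genes was lower in both 36 h libraries than at 12 h, with log2 fold changes of -1.91, -1.62 and -2.13 (adjusted p 0.00567, 0.00935 and 0.00505). Among the troughs, ABCG1 is given above, and PLLP, plasmolipin, stood at 4.03 CPM at 0 h, 3.11 and 3.56 at 4 h, 0.99 at 12 h, and 3.77 and 3.13 at 36 h. Such genes rest on the 1 library at 12 h being unlike the others, and the authors' deposited table gave SYNPO a q-value of 0.193.

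**Figure D5:**
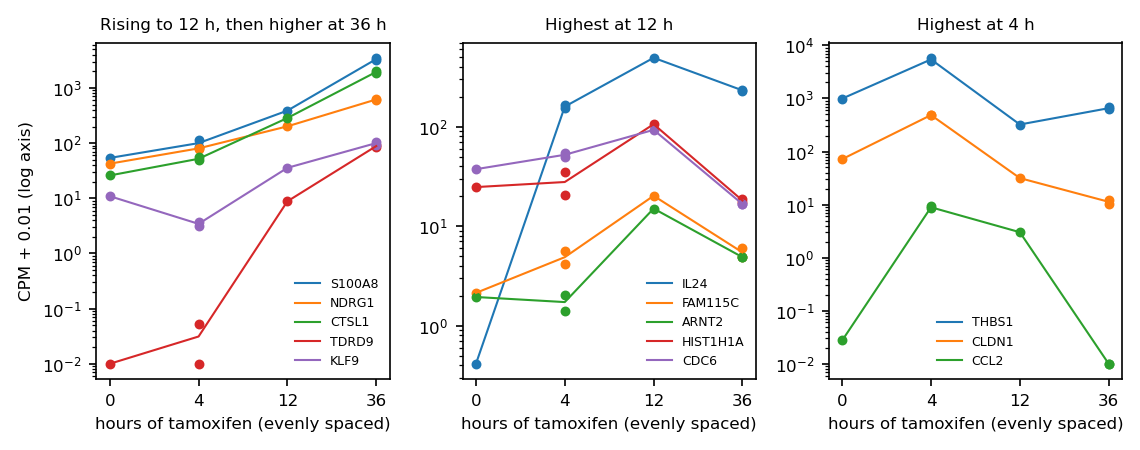
Level (y axis, CPM + 0.01, log axis) against hours of tamoxifen (x axis, evenly spaced) for selected genes. Genes on the left were above their 0 h level at 12 h and higher again at 36 h, KLF9 after a dip at 4 h. Those in the middle were highest at 12 h and those on the right at 4 h. Points are libraries and lines join the means; IL24 reached 491 CPM at 12 h, THBS1 stood at 5831 and 5035 CPM at 4 h and 323 CPM at 12 h, and CCL2 was at 0 CPM in both 36 h libraries.

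LincRNA rows were called about as often as other rows, 4.31% of 3386 against 4.28% of 11224. The calls were more evenly split, 78 higher and 68 lower, against 364 higher and 116 lower among the others. The largest rise with more than 3 fragments was linc-STC1-AS, which stood at 1.72 CPM at 0 h, 68.5 and 49.6 at 4 h, 1253 at 12 h, and 3014 and 3641 at 36 h, next to linc-SERPINB4-AS, at 0.368 CPM at 0 h, 41.8 and 62.1 at 4 h, 74.7 at 12 h, and 177 and 169 at 36 h. linc-ADAMTS4-AS had 1 fragment at 0 h and 1288 at 12 h, which is 2618-fold with a 95% interval of 469 to 1.03e+05. The ending -AS was read as antisense, each of these rows shares its deposited interval with the named gene or lies over it, and the strand setting of the counting was not given, so their reads cannot be told apart from those of STC1, ADAMTS4 and the SERPINB genes. Of 49 such lincRNA rows called higher, 40 had a measured named gene and 36 of those genes were called higher too, against 74 of 2038 named genes over all such rows tested. For the 36 such rows called lower, 30 had a measured named gene and 6 of those were lower, against 27 of 2038. Away from a named gene, linc-DEFB105B-1 went from 0 to 325 fragments, at least 220-fold, and linc-SULF2-1 from 0 to 25, at least 16.9-fold. The ending -BP was read as a bidirectional promoter, so linc-FGF1-BP was not taken as lying away from its named gene. linc-FGF1-BP stood at 20.2 CPM at 0 h, 13 and 10.6 at 4 h, 1.38 at 12 h, and 51.8 and 57.1 at 36 h, a deep trough at 12 h. linc-POU3F4 stood at 119 CPM at 0 h, 15.8 and 8.78 at 4 h, 9.93 at 12 h, and 6.62 and 5.88 at 36 h. linc-FAM84B-1 and linc-FAM84B-2, which share 1 deposited interval, fell 16.1-fold and 9.33-fold. linc-CHM-2 went from 128 to 2 fragments (0 h over 12 h, 31.5, 95% interval 8.54 to 263). The authors' deposited table did not call linc-ADAMTS4-AS (q 0.552), linc-CHM-2 (q 0.283), linc-FAM84B-1 (q 0.163) or linc-SERPINB4-AS (q 0.0708). Of the lincRNAs just named, only linc-STC1-AS and linc-POU3F4 kept the call in all 13 other settings.

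Some of the rises lay side by side. Taking called genes with gaps of at most 100 kb, 35 runs of 2 or more genes called higher held 79 genes, and 4 runs called lower held 8. Runs form more readily where more genes are called, as among the rises. How many runs the numbers called would give by themselves was not tested, so the counts are a description. The run with the most called rows, 5 of 9 member rows in its span, lay on chromosome 20 (chr20:62119366-62370459, hg19) and held EEF1A2, STMN3, ARFRP1, the joint row of RTEL1 and TNFRSF6B, and a row without a symbol. Another, on chromosome 12, held KRT75, KRT6B, KRT6C and KRT6A (chr12:52771596-52914243, hg19), with KRT5 inside the run and not called. The called genes of this run share that deposited interval, so no gap between them was measured. MRGPRX3, SAA4, SAA2 and SAA1 formed a run on chromosome 11 (chr11:18142502-18291526), and IL20, IL24 and FAIM3 on chromosome 1 (chr1:207038699-207098622). IL20, the neighbour and relative of IL24, went from 0.0876 to 2.4 CPM and was near that level in the 4 h libraries (2.18 and 2.8 CPM). PLA2G4E and PLA2G4D, cytosolic phospholipases, lay next to EHD4, and S100A9 and S100A8 lay together with S100A12 between them not called. Near-identical neighbours can share reads, whose part was not tested.

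Promoter letters were compared for the factors whose gene lists were read above, using RefSeq windows from 250 bases before to 50 bases after each start (GRCh38.p14, matched by symbol). Windows were found for 235 of the genes called higher (353 windows) and 87 of those called lower (153 windows), and the full set held 35116 windows. The kappa-B motif of NF-kB, read on both strands with its middle pair of bases free, was in 5.95% of windows of genes called higher, 1.96% of those called lower, 2.14% of all member windows and 1.91% of all windows. In the called NF-kB genes it was in 4 of 13 windows. These 4 windows, from 3 of the 8 called genes with a window, are shown because they hold the letters; the windows of the other called NF-kB genes hold no match. Each match is in capitals and the strand is that of the gene.
CCL20 (chr2:227813743-227813792, plus strand): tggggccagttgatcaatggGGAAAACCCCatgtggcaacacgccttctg
TNFAIP3 (chr6:137867172-137867233, plus strand): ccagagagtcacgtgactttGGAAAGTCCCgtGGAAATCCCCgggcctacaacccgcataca
NFKB2, upstream start (chr10:102394480-102394529, plus strand): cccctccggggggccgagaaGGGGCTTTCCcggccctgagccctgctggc
NFKB2, downstream start (chr10:102395664-102395704, plus strand): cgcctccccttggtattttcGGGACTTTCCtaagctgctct
The matches began 79 bases before the start in CCL20, 67 and 55 in TNFAIP3, and 78 and 21 before the 2 starts of NFKB2.

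The E2F letters TTTNNCGC were in 4 of 8 windows of the called DNA replication genes. Over all windows of genes called higher they were in 7.37%, against 7.19% for genes called lower, 9.66% of member windows and 6.89% of all windows. MCM7 and E2F1 are printed as the 2 with several matches, which in E2F1 overlap.
MCM7 (chr7:100101398-100101604, minus strand): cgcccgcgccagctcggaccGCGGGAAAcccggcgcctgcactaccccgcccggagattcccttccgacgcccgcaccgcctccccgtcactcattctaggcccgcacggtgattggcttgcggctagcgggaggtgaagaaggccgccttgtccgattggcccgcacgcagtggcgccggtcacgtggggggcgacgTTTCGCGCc
E2F1 (chr20:33686386-33686527, minus strand): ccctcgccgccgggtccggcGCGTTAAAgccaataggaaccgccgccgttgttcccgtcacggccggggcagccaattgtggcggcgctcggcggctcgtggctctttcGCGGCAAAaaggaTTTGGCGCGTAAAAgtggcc
The AP-1 letters TGANTCA, to which FOS and JUN proteins bind, were in 10.2% of windows of genes called higher, 9.15% of those called lower, 5.34% of member windows and 7.71% of all windows. PLAUR holds the match among the called proteases, 186 bases before its start.
PLAUR (chr19:43670329-43670375, minus strand): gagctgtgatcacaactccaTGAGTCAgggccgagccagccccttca
The STAT letters TTCNNNGAA were in 8.22%, 5.23%, 6.3% and 7.66% of the same 4 sets, and in 0 of 10 windows of the called IL-6 and STAT3 genes. The FOXO letters GTAAACA were in 2.83%, 3.92%, 2.62% and 3.42%, and the hypoxia letters TACGTG in 3.12%, 3.92%, 3.28% and 3.24%. A match describes letters in a window and is not a site, and a window without one says only that the letters are not in it.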

How the data were processed

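PolyA-selected RNA was measured in 6 libraries of MCF10A-Src cells, per the labels. The submitters' processing notes name CASAVA 1.4, TopHat, Cuffdiff and the build hg19. The annotation, the strandedness used in counting and the other versions are not given in the sources used here. The authors' deposited table holds estimated counts of fragments and FPKM values by gene and library, per the file headers. A second deposited table gives the authors' p-value and q-value for each pair of times, with a log2 column that was treated as a score and read for its sign alone. No column of any other sample was in the time-course table.

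Estimated counts were rounded. Rows reaching 1 FPKM in any of the 6 libraries, with status OK in all, entered the fit, 15572 in all; 59 rows, 32 of them members, lacked that status. Counts were scaled by TMM and tested with edgeR 4.0.16 (glmQLFit and glmQLFTest, 1 coefficient per time, R 4.3.3), 2-sided, with Benjamini-Hochberg adjustment over all 15572 genes and a threshold of 0.05. All 6 libraries shared 1 estimate of the spread, with a common biological coefficient of variation of 0.162 and 2 residual degrees of freedom. The SE is the absolute log2 fold change over the square root of the F statistic. The fit was tested on simulated data. Depth was 12.6 M to 52.3 M fragments, and the 0 h library was the deepest. Ratios with 1 to 3 fragments carry exact 95% Clopper-Pearson intervals, and bounds use 3 fragments in the library.

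The members and the 42 gene lists were chosen with earlier results of these data known, and the histone list was added after values were seen. Named genes were LINC00520, STAT3 and SRC, the 12 largest rises and falls among called genes with a single symbol that is not a lincRNA and more than 3 fragments in both libraries, the 5 largest each way with 0 to 3 fragments, the 5 largest each way among lincRNAs, up to 4 called members per list, and the 6 clearest peaks and troughs at 12 h. Other genes are named as list members or as picked after their values were seen. Alternatives were DESeq2 1.42.0 and its size factors, library totals, other FPKM filters, limma 3.58.1 on log2(FPKM + 1) and log2(FPKM + 0.1), a replicate block, leaving out each 4 h and 36 h library, and the authors' deposited q-values. Python 3.11.15 with pandas 2.3.3, scipy 1.17.1 and matplotlib 3.10.9 was used for the rest. Coordinates of genes are hg19 positions from the files; promoter windows are RefSeq sequences on GRCh38.p14, matched by symbol.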

Additional observations from a re-analysis of the deposited data

How the results depend on the processing

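The main counts were 442 genes higher and 184 lower, and 78 listed genes higher and 15 lower. Without an FPKM filter they were 814, 502, 134 and 33, with limma on log2(FPKM + 1) 150, 73, 29 and 1, with limma on log2(FPKM + 0.1) 172, 78, 32 and 1, and by the authors' deposited q-values 735, 411, 122 and 29. Leaving out 1 replicate at a time gave 504 to 1394 genes higher, 230 to 1244 lower, 85 to 178 listed genes higher and 18 to 65 lower; the high ends come from leaving out a 4 h library. The causes were not tested. DESeq2 (598 and 257), its size factors (493 and 205), library totals (364 and 145) and an FPKM filter on 0 h and 12 h alone (429 and 168) stayed within 1.5 times the main counts.

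The correlation of replicate deviations at 4 h and 36 h was 0.0783. These pairs alone cannot show whether replicate numbers pair the libraries. A fit with the replicate number as a block called 494 genes higher and 254 lower, and 85 and 15 listed genes. Of 112 named genes, 0 reversed direction in any of these settings. The call was lost for 61 with limma on log2(FPKM + 1), 53 with log2(FPKM + 0.1), 24 by the authors' q-values, 10 with library totals, 5 with DESeq2, 3 with the 0 h and 12 h filter and 3 without either 36 h replicate. The 12 h and 0 h groups could not be tested without their only library.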

Other observations

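Among abundant genes not described above, NAMPT, which makes a precursor of NAD, had 402 CPM at 0 h, 616 and 676 at 4 h, 1862 at 12 h, and 4745 and 5251 at 36 h (log2 2.21, SE 0.246, adjusted p 0.00234). SERPINB1, an inhibitor of neutrophil elastase, had 41.8 CPM at 0 h, 159 and 153 at 4 h, 492 at 12 h, and 2308 and 2751 at 36 h. The metallothionein MT1X had 70.6 CPM at 0 h, 92.1 and 128 at 4 h, 242 at 12 h, and 1138 and 1704 at 36 h. All 3 had their lowest level at 0 h and their highest at 36 h, and were named after their values were seen.

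FGFBP1, a carrier of fibroblast growth factors, had 224 CPM at 0 h, 318 and 299 at 4 h, 70.0 at 12 h, and 25.4 and 25.8 at 36 h. DST, a linker of the cytoskeleton to hemidesmosomes, had 1755 CPM at 0 h, 1173 and 1144 at 4 h, 667 at 12 h, and 853 and 665 at 36 h. These were among the most abundant genes called lower at 12 h.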
